A study of Mus musculus with 1016 samples.

Results

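Single-cell Repli-seq was compared between 2-cell mouse embryos grown with the transcription inhibitor DRB and untreated 2-cell embryos collected at the same hours. A cell was taken when the hour in its label was 35, 37, 38, 39 or 40 h after injection of human chorionic gonadotropin (hCG) and when its replication score, the percentage of called bins with the replicated state, lay from 10 to 90%. This gave 52 DRB and 49 control cells, 101 cells of the 1016 labelled samples of the series. The study followed the replication programme from zygote to blastocyst, and the question behind the comparison is whether transcription at genome activation bears on the order in which the 2-cell genome is copied. Both groups were embryos of the cross (C57BL/6J x CBA) x DBA/2J, collected as zygotes and cultured in KSOM medium. DRB was added at 100 µM from 17 h after hCG and left until collection, and the controls received no inhibitor. The labels name no embryo, litter or culture, so each group stood as a single sample and no test was run. The spread is given over the 5 hours, which also differ in how far the cells had come through S phase.

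Replication timing (RT) is the order in which stretches of chromosome are copied during S phase, with gene-rich, open chromatin usually early and gene-poor, lamina-bound chromatin late. In single-cell Repli-seq a cell in S phase is sequenced, and copied stretches stand out by their higher read number. DRB blocks CDK9, the kinase that releases paused RNA polymerase II into elongation, whereas α-amanitin binds the polymerase itself. In the mouse, the major wave of zygotic genome activation (ZGA) falls in the 2-cell stage, where RT is still weakly defined. The states hold no measure of transcription, so the action of the inhibitor could not be checked in these cells.

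Most cells had a state in nearly every bin that could be called. Called bins of 50 kb ranged from 43405 to 46491 in control cells and from 44329 to 46508 in DRB cells, and 46464 of 49264 bins on chromosomes 1 to 19 had a value in both groups. The highest agreement between any pair of cells was 76.6% of bins, so no pair was near identical. Some cells stood apart. Fewer than 400 changes of state along the genome were seen in 3 control and 3 DRB cells, where the median was 1205 in control and 1076.5 in DRB cells, and 1 control cell of 37 h and 1 of 35 h had no change within any chromosome. The 5 control cells of 35 h numbered 73 and above hardly correlated with the remaining controls (r from -0.00717 to 0.0765). Some results that turn on these cells are given with and without them.

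DRB cells had on average copied more of the genome. The mean replication score was 49.4% in control and 57.7% in DRB cells, a difference of 8.30 percentage points. At 35 h the 21 control cells ran from 20.5 to 77.3% with a median of 38.9%, and the 8 DRB cells from 38.2 to 74.0045% with a median of 56.1%. At 37 h the order was turned, with medians of 59.2% in 8 control cells (42.7 to 84.8%) and 55.4% in 14 DRB cells (24.5 to 80.7%). The medians were 50.2% (7 control cells) and 53.6% (8 DRB cells) at 38 h, 49.2% (7) and 60.9% (10) at 39 h, and 55.3% (6) and 64.6% (12) at 40 h. The groups overlapped at every hour, and the difference in mean score was 6.04 ± 7.49 points (SD, n = 5 hours). Scores did not climb steadily with the hour in either group. Because a cell further into S phase has more of every region copied, each regional difference below is relative: the share of DRB cells replicated minus the share of control cells, less the same difference over all bins (0.0832). A single value for all bins cannot even out progress that acts unequally on early and late regions. Read depth was not used here, and each bin had been scaled to the mean of its own group, so a gain shared by all cells of a group leaves no trace.

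**Figure D1:**
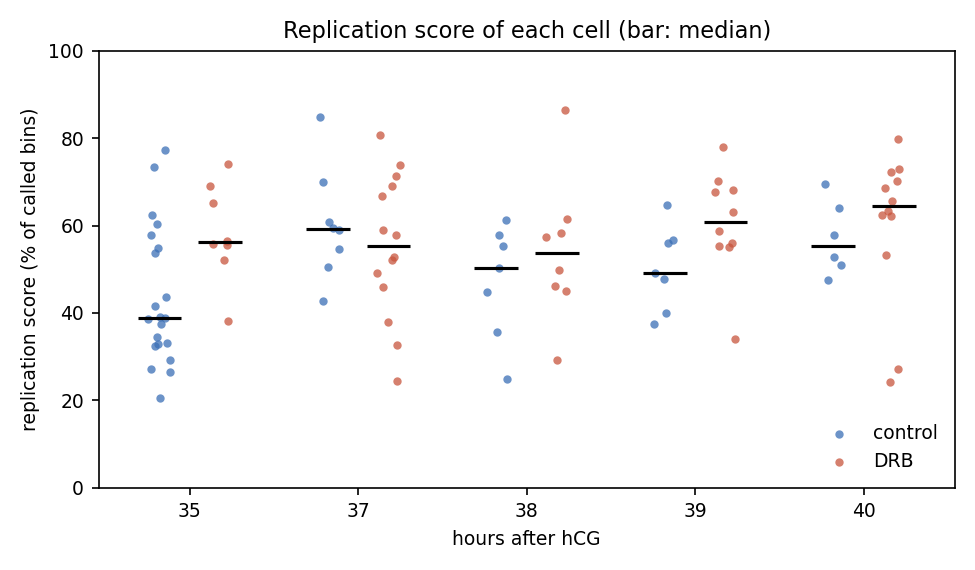
Replication score of each cell (y axis, percent of called bins replicated) by hour after hCG (x axis), control cells in blue and DRB cells in red, with black bars at the medians. The groups overlap at every hour, and the widest gap between medians is at 35 h, 38.9% in control against 56.1% in DRB cells.

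The replication profile of DRB cells kept the general shape of the control profile. Across 1173 windows of 2 Mb with at least 20 called bins, the share of cells replicated gave a Spearman's R of 0.823 between the groups, as a description over windows that share cells. Hour by hour, DRB and control cells gave R from 0.433 (38 h) to 0.682 (35 h). Control cells of one hour against control cells of the other hours gave mean values of 0.468 to 0.539, and DRB cells against DRB cells of other hours 0.545 to 0.655. Profiles of the groups at a given hour were thus about as alike as profiles of a single group at different hours. R with 2-cell embryos injected with KDM5B mRNA (56 cells of all hours) was 0.843 for DRB and 0.825 for control cells. The DRB profile was thus at least as close to that differently treated group as to the controls. Among other stages, R with the zygote was 0.790 for DRB and 0.801 for control cells, R with the 4-cell stage 0.661 and 0.606, and R with the morula 0.578 and 0.478.

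Early and late regions were further apart in DRB cells. The SD of the share over windows was 0.122 in control and 0.154 in DRB cells, and 58.1% of windows in control against 36.1% in DRB cells were replicated in 40 to 60% of cells. With RT averaged over 16 intervals of replication score, which evens out the cells' progress, these percentages were 59.8% and 43.9% and the SDs 0.119 and 0.152. The variability score, which is 1 where 50% of cells have copied a bin and 0 where all or none have, averaged 0.754 in control and 0.658 in DRB cells. Over 16 intervals of score it was 0.757 and 0.693, and without 35 h the difference was -0.0250 in place of -0.0952. The SDs were closer without 35 h, at 0.143 (28 control cells) and 0.149 (44 DRB cells). Without the 5 control cells numbered 73 and above they were 0.134 (44 cells) and 0.154 (52 cells). With only the control cells passed in the authors' quality table they were 0.135 (40 cells) and 0.154 (52 cells). By hour, the SD was higher in DRB cells by 0.0904 at 35 h (8 DRB and 21 control cells), 0.0216 at 37 h (14 and 8) and 0.00450 at 38 h (8 and 7). The difference was -0.0192 at 39 h (10 and 7) and -0.00337 at 40 h (12 and 6). Counting error adds to each SD, more so with fewer cells, and its part in these differences was not tested.

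Single DRB cells followed the profile of either group more closely than control cells did. The correlation of a cell's states with the share in the remaining cells of its group had a median of 0.292 in control (quartiles 0.216 and 0.329) and 0.368 in DRB cells (quartiles 0.299 and 0.422). With the profile of the other group, the median was 0.265 in control and 0.343 in DRB cells. With the cell's own group, the DRB median was the higher at each of the 5 hours, by the most at 35 h (0.412 against 0.255) and by little at 38 h (0.260 against 0.2503). It was also the higher in each band of score, at 0.249 (4 DRB cells) against 0.0697 (5 control cells) for 10 to 30%. The values were 0.388 (9) against 0.288 (18) for 30 to 50% and 0.383 (28) against 0.315 (22) for 50 to 70%. For 70 to 90% they were 0.367 (11) against 0.287 (4). The bands were not repeated without the 5 control cells of 35 h numbered 73 and above. Of the control cells, 9 had a correlation below 0.1, 8 of them at 35 h, whereas 1 DRB cell did, at 38 h. DRB cells also had fewer changes of state per cell at 37 to 40 h, with medians of 1108 against 1260.5 at 37 h and 1015 against 1436 at 40 h, and more at 35 h (1195 against 1077). By band of score, DRB cells had 906 against 949 for 10 to 30% and 1168 against 1195 for 30 to 50%. For 50 to 70% they had 1122.5 against 1337, and for 70 to 90% more, 956 against 902.

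The windows of the genome were then ordered by measures taken outside the compared cells. In the 20% of windows replicated latest in morula cells (235 windows), the share was 0.409 in control and 0.435 in DRB cells, and 182 of them had a relative difference below 0. In the earliest 20% (235 windows) the shares were 0.575 and 0.692, and 163 windows were above 0. The gap between these classes was therefore 0.166 in control and 0.257 in DRB cells. It was wider under DRB at all 5 hours, by 0.102 ± 0.0332 (SD, n = 5 hours), and by 0.0583 without the 5 control cells of 35 h numbered 73 and above. Averaged over score, the widening was 0.0918 with 16 intervals and 0.0764 with 4 strata. With only the control cells passed in the authors' quality table it was 0.0692. Ordered by control cells of 32 and 33 h (14 cells outside the comparison), the gap was 0.216 in control and 0.298 in DRB cells, wider by 0.0796 ± 0.0525 and at every hour. Over all cells this widening was 0.0828, and 0.0529 without the same 5 control cells. With 5 hours, a two-sided sign-flip test could not give a p below 0.0625, and none was run.

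Windows were also ordered by base composition and by gene density. In the 20% of windows lowest in GC content (35.97 to 38.8%), 184 of 235 windows had a relative difference below 0, with a mean of -0.0602, and in the 20% highest in GC (44.8 to 51.9%) 163 of 235 were above 0, with a mean of 0.0408. In windows with 0 to 4 gene starts the mean was -0.0484, and in those with 25 to 117 gene starts 0.0267. In control cells the GC gap, the share in the highest minus that in the lowest 20%, was 0.136 at 35 h, 0.0900 at 37 h, 0.00619 at 38 h, -0.0165 at 39 h and -0.0526 at 40 h. In DRB cells it was 0.199, 0.309, 0.116, 0.118 and 0.0501 at the same hours, above the control value each time. The gap by gene density was 0.0916 at 35 h and -0.110 at 40 h in control cells, and 0.112 and -0.00981 in DRB cells. The highest class was thus ahead of the lowest in control cells at 35 and 37 h but behind it at 39 and 40 h, by either order, while in DRB cells it was ahead at all 5 hours by GC content and at 4 by gene density. The middle classes did not all lie between these ends: by gene density the highest class had a share of 0.460 in control and 0.570 in DRB cells, below the 0.540 and 0.640 of the class next to it. Without the 5 control cells of 35 h numbered 73 and above, the gap was wider in DRB cells by 0.0735 for GC content and 0.0552 for gene density, against 0.101 and 0.0750 with them. Reads of GC-rich and GC-poor DNA can be recovered unequally in library preparation, and the part of this in the gaps was not tested.

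**Figure D2:**
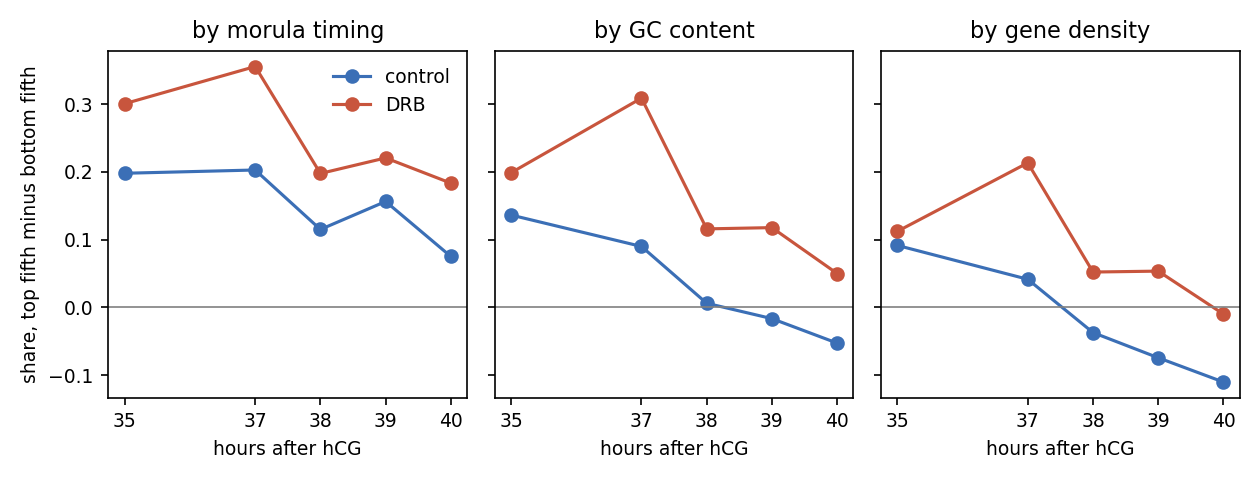
Share of cells replicated in the top 20% minus the bottom 20% of 2 Mb windows (y axis) by hour after hCG (x axis), with windows ordered by RT in morula cells, by GC content and by gene starts, control in blue and DRB in red. The DRB point lies above the control point at every hour in all 3 panels, and the control gaps lie below 0 at 39 and 40 h by GC content and from 38 h on by gene density.

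Few windows differed by much. A relative difference of -0.2 or below was called later and one of 0.2 or above earlier in DRB cells. Of 1173 windows, 8 were called later (0.682%) and 4 earlier (0.341%), and 76.3% lay within 0.1 of zero. The relative difference was below 0 at all 5 hours in 64 windows (5.46%) and above 0 at all 5 in 80 (6.82%). The 64 windows had a median GC content of 38.6%, 6.5 gene starts and a morula RT of 0.334, and the 80 windows 43.99%, 16 gene starts and 0.653, where all windows had 41.7%, 12 and 0.560. Left uncentred, the differences gave 0 windows later and 101 earlier. The counts also turned on single hours: without 35 h they were 34 and 31, without 40 h 21 and 13, and without 38 h 19 windows were called later. At the scale of single bins, 1631 of 46464 (3.51%) were called later and 1469 (3.16%) earlier. These calls carry the counting error of about 50 cells a group: a window copied in 24 of 49 control cells, or 48.98%, has an exact 95% binomial interval of 34.4 to 63.7%. All such intervals (Clopper-Pearson) cover counting error only.

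**Figure D3:**
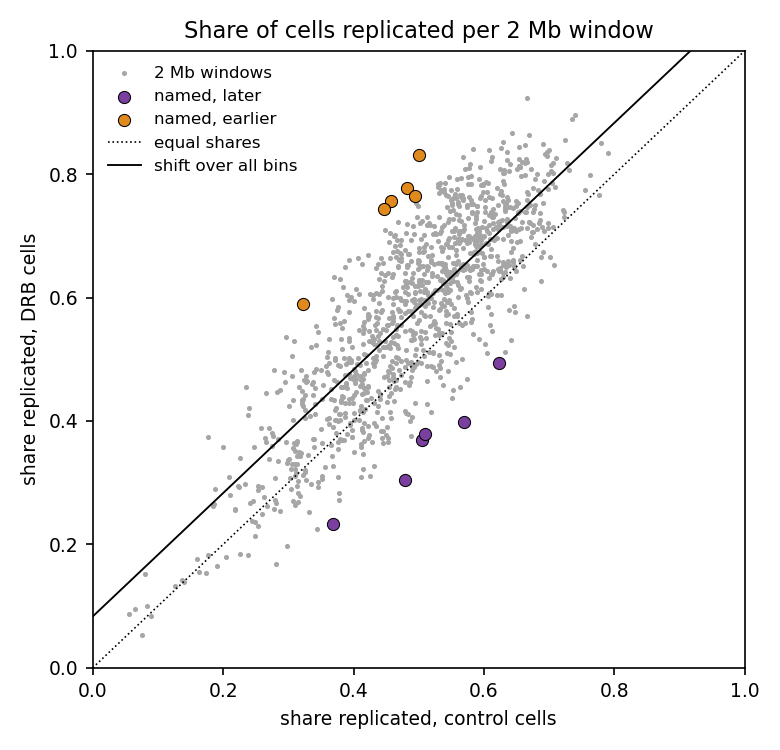
Share of cells with the window replicated in control (x axis) and DRB cells (y axis) for 1173 windows of 2 Mb in grey, with the 6 lowest (purple) and 6 highest (orange) relative differences among windows of one sign at all 5 hours. The solid line marks the shift of 0.0832 over all bins and the dotted line equal shares, and most points lie close to the solid line.

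Of the 6 named windows furthest behind in DRB cells, 4 held a single protein-coding gene. The lowest, chr1:108000001-110000000, holds the first part of Cdh7, a type II cadherin, and no other protein-coding gene. Its share of control cells replicated was 0.427 at 35 h, 0.384 at 37 h, 0.679 at 38 h, 0.454 at 39 h and 0.588 at 40 h. Its share of DRB cells was 0.328, 0.225, 0.369, 0.305 and 0.338 at these hours, lower each time. Most of the window was copied in 25 of 49 control cells (51.02%, 36.3 to 65.6%) and in 14 of 52 DRB cells (26.9%, 15.6 to 41.02%), and the relative difference was -0.258, with -0.254 ± 0.0970 over the hours. A single gene was also present in each of chr1:146000001-148000000 (Brinp3, -0.218), chr2:96000001-98000000 (Lrrc4c, a synaptic adhesion protein, -0.215) and chr5:80000001-82000000 (Adgrl3, a latrophilin receptor, -0.212). All 4 of these windows had a GC content of 36.2 to 36.9%.

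The remaining named windows behind under DRB held more genes. In chr1:176000001-178000000, with Pld5 and the centrosomal gene Sdccag8 among 8 genes, control shares were 0.498, 0.525, 0.507, 0.836 and 0.646 from 35 to 40 h and DRB shares 0.478, 0.330, 0.328, 0.372 and 0.490. The relative difference was -0.255, -0.263 ± 0.174 over the hours, and the hour furthest out was 39 h. Its neighbours on both sides were also below 0 at all 5 hours (-0.112 and -0.159). In chr10:100000001-102000000, with Mgat4c, the centrosomal gene Cep290 and the growth factor gene Kitl, the relative difference was -0.219 and ranged from -0.569 at 39 h to -0.0444 at 38 h.

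The 6 named windows furthest ahead in DRB cells held 7, 8, 14, 49, 55 and 62 protein-coding genes. The highest, chr13:52000001-54000000, holds Ror2, a Wnt receptor, Auh, an enzyme of leucine breakdown, and the kinase gene Syk. Its control shares were 0.596, 0.578, 0.211, 0.454 and 0.450 from 35 to 40 h, and its DRB shares 0.938, 0.882, 0.697, 0.820 and 0.798, higher at every hour with no overlap between the groups. Most of it was copied in 23 of 49 control cells (46.9%, 32.5 to 61.7%) and in 48 of 52 DRB cells (92.3%, 81.5 to 97.9%), and the relative difference was 0.248, with 0.309 ± 0.0852 over the hours. The adjoining chr13:54000001-56000000, with Nsd1, a histone H3K36 methyltransferase gene, Unc5a, and 49 protein-coding genes in all, was at 0.214, and the next window on was at 0.1797, above 0 at all 5 hours as well. A run of 6 Mb on chromosome 13 was therefore ahead.

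In chr11:96000001-98000000, which holds Skap1, Npepps and the Hoxb cluster among 55 genes, control shares were 0.586, 0.4, 0.339, 0.179 and 0.550 and DRB shares 0.850, 0.841, 0.728, 0.593 and 0.748, with no overlap and a relative difference of 0.215. The next were chr17:72000001-74000000 (Alk, Galnt14 and Lclat1) at 0.212, chr18:32000001-34000000 (Camk4, Epb41l4a and Map3k2) at 0.187 and chr17:32000001-34000000 at 0.185. The last holds the receptor gene Notch3 and the myosin gene Myo1f among 62 genes, and was copied mostly in 14 of 48 control (29.2%, 16.95 to 44.1%) and 32 of 52 DRB cells (61.5%, 47.02 to 74.7%). The 6 windows had GC contents of 42.3 to 47.7%, against 36.2 to 41.4% in the 6 windows behind. The windows were chosen as extremes of one sign at all 5 hours. Their sign, and the separation of their shares and intervals between the groups, is thus no sign of stability. Single values moved with the hour left out, that of the Hoxb window between 0.142 and 0.339.

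**Figure D4:**
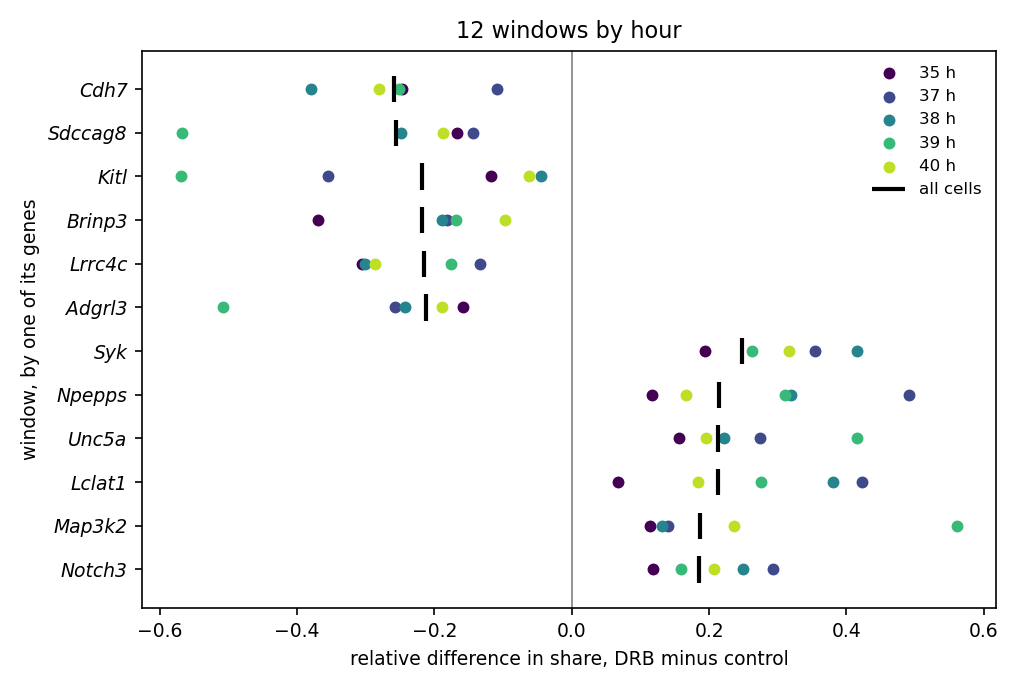
Relative difference in share, DRB minus control (x axis), of the 12 named windows, each labelled by one of its genes, with a dot for each hour and a black bar for all cells. The 6 upper windows lie below 0 and the 6 lower ones above 0 at each of the 5 hours, which is how they were chosen, and the Sdccag8, Kitl and Adgrl3 windows have their lowest dots at 39 h.

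Promoters of the named genes in these windows held more CG on median in windows ahead than in windows behind, with ranges that overlapped. Printed below, to set windows behind against windows ahead, are the 250 bases before the RefSeq start of a gene in each of the 2 lowest and the 2 highest windows (GRCm38.p6, strand of the gene, 5′ to 3′), with the dinucleotide CG, which reads alike on both strands, in capitals. Over 27025 promoters, 1 per gene, 91.7% held at least 1 CG in this stretch and the median count was 6 (quartiles 2 and 16). Cdh7, at chr1:109982650-109982899 on the plus strand, holds 13 CG. Pld5, at chr1:176213943-176214192 on the minus strand, holds 5. Ror2, at chr13:53286125-53286374 on the minus strand, holds 24, and Npepps, an aminopeptidase gene at chr11:97280577-97280826 on the minus strand, holds 35.
Cdh7: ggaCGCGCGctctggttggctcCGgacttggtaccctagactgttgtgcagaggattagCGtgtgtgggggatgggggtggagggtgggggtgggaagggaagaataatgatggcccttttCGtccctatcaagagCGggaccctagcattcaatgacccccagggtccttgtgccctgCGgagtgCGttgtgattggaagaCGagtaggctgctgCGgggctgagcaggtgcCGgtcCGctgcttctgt
Pld5: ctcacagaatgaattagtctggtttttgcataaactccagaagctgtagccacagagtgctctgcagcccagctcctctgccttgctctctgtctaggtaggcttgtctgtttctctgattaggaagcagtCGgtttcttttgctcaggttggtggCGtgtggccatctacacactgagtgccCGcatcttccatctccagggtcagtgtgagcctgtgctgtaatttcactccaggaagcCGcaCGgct
Ror2: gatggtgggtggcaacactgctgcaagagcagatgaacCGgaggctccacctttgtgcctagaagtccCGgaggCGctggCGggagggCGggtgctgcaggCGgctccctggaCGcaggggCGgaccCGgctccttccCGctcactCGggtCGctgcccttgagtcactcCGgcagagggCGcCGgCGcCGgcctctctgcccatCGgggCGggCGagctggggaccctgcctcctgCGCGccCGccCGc
Npepps: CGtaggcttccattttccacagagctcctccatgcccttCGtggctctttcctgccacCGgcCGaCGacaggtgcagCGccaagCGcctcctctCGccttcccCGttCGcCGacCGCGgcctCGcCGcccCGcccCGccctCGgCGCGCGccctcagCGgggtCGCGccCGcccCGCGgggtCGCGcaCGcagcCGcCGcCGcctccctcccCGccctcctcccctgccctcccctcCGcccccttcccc
Of the named genes with a promoter inside their window, the 8 in windows behind held 1 to 36 CG with a median of 9, and the 11 in windows ahead 4 to 35 with a median of 19. Both medians were above that of all promoters (6). Adgrl3 (36) and Kitl (23) in windows behind were as CpG-rich as most of those ahead, and Myo1f (4), in a window ahead, was among the poorest of either set.

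Whole chromosomes differed less than windows. Relative differences over the 19 chromosomes ran from -0.0593 on chromosome 8 to 0.0475 on chromosome 11. Chromosome 8 was copied in a share of 0.488 of control and 0.512 of DRB cells and was below 0 at 4 of 5 hours (-0.0738 ± 0.0710 over the hours). Chromosome 1 (-0.0390) was below 0 at all 5 hours, and 14 of its 97 windows were below 0 at every hour against 2 above. Chromosomes 11 (0.0475) and 17 (0.0469) were the furthest ahead, at 4 and 3 of the 5 hours, with SDs over the hours of 0.0841 and 0.0754 that exceed the means of 0.0533 and 0.0616. On chromosome 17, 12 of 46 windows were above 0 at every hour and 1 was below. By distance from the chromosome start, where mouse centromeres lie, windows of the first 10 Mb had a relative difference of -0.0393 (SD over hours 0.0684), those from 30 to 60 Mb 0.0313 (SD 0.0102) and those beyond 100 Mb -0.0329 (SD 0.0140).

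Protein-coding genes as a whole lay slightly ahead of the genome. Over 19954 genes with a value the median share was 0.510 in control and 0.644 in DRB cells and the median relative difference 0.0256, with 330 genes called later (1.65%) and 940 earlier (4.71%). The median was lower in longer genes, from 0.0303 in 10487 genes under 20 kb and 0.0240 in 7119 genes of 20 to 100 kb to 0.0177 in 2130 genes of 100 to 500 kb and -0.0261 in 218 genes of 500 kb or more. At 35 h this order was not kept, with medians of -0.0287, 0.0189, 0.0439 and 0.0209 from the shortest class to the longest. The longest class was below 0 at 4 of 5 hours. Its genes called later numbered 12 and earlier 3. Of 20 gene lists and families, the median was above 0 at all 5 hours in 4 and below 0 at all 5 in 1. The median of all protein-coding genes was itself above 0 at all 5 hours (0.00104 at 35 h to 0.0678 at 39 h). A list above 0 at every hour therefore does not stand apart by that alone. Genes of a list are not independent, since neighbours share bins. Apart from Cdk9 and Polr2a, the genes named from a list below are among its 2 lowest and 2 highest, and so extremes by choice.

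The Pol II elongation list, 30 genes for pausing and elongation factors that include the target of DRB, had a median of 0.0473. It stood above 0 at all 5 hours, as did all genes. Of its 30 genes 1 was called later and 4 earlier, where 1.65% and 4.71% of all genes were. Ccnt1, which encodes the cyclin partner of CDK9, was copied in 21 of 49 control (42.9%, 28.8 to 57.8%) and 40 of 52 DRB cells (76.9%, 63.2 to 87.5%), a relative difference of 0.247 and above 0 at all 5 hours. Aff1, a scaffold of the super elongation complex, was at 0.234 and above 0 at 4 hours. Ell2, an elongation factor, was the lowest at -0.238 and Ccnt2, the other cyclin T, was at -0.138, both below 0 at all 5 hours. Cdk9 itself was copied in 24 of 49 control and 36 of 52 DRB cells, with a relative difference of 0.119 that had no steady sign (-0.219 at 35 h, 0.552 at 40 h). Polr2a, the largest subunit of Pol II, was at 0.150 and above 0 at all 5 hours. The 2 cyclin partners thus lay on opposite sides of the genome average.

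Lists of genes used in every cell differed among themselves. In the housekeeping list 24 of 29 genes had a relative difference above 0, where 58.8% of all genes did, and the median was 0.0699 and above 0 at all 5 hours. The chaperone gene Hspa8 was copied in 24 of 49 control (48.98%, 34.4 to 63.7%) and 45 of 52 DRB cells (86.5%, 74.2 to 94.4%), with a relative difference of 0.292. Hsp90ab1 was at 0.237, while B2m (-0.0896) and Sdha (-0.0543) were the lowest. In the ribosome biogenesis list 17 of 29 genes were above 0 (58.6%), close to the share of all genes, and the median of 0.0295 was below 0 at 3 of 5 hours. The histone genes, 70 genes in 19 bins, had a median of 0.0358, above 0 at all 5 hours. The oocyte list, genes that serve the growing egg, had a median of 0.0138, above 0 at all 5 hours but below that of all genes (0.0256), with 14 of 25 genes (56%) above 0. The lowest oocyte genes were Nlrp2 (-0.275), copied in 10 of 49 control and 1 of 52 DRB cells, and Padi6 (-0.251), in 12 of 49 and 4 of 52, both maternal-effect genes and both below 0 at 4 hours.

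Long neuronal genes formed the list below 0 at all 5 hours, with a median of -0.0391. Of these genes, 21 of 30 (70%) were below 0, where 41.2% of all genes were. Cntn6, a contactin of neuronal membranes, was copied in 33 of 49 control (67.3%, 52.5 to 80.1%) and 24 of 52 DRB cells (46.2%, 32.2 to 60.5%), a relative difference of -0.303, and Robo2, an axon guidance receptor, was at -0.227. Ntm (0.111) and Opcml (0.0412), neighbours on chromosome 9, were the highest. With any single hour left out the list's median ran from -0.0805 to -0.00134, nearest 0 without 37 h. Olfactory receptors (1085 genes, median -0.0722, 71.5% below 0) and vomeronasal receptors (226 genes, -0.0663) were among the latest regions in both groups, with median shares of 0.204 and 0.163 in control cells. Their medians rested on 35 h, at -0.213 and -0.219, and lay between -0.0309 and 0.0369 at the other hours. Without 35 h the olfactory median was 0.00448.

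The genes that the 2-cell embryo switches on showed no common direction. Of 30 major ZGA genes 17 had a value, 8 below and 9 above 0, with a median of 0.00568, and none of Zscan4c, Zscan4d and Zscan4f, the best known markers of the stage, lay in bins called in both groups. Eif1ad was the highest, copied in 20 of 49 control (40.8%, 26.997 to 55.8%) and 43 of 52 DRB cells (82.7%, 69.7 to 91.8%), with a relative difference of 0.336 and above 0 at all 5 hours. Btg2, an antiproliferative gene, was at 0.155, and Usp17lc (-0.147) and Klf17 (-0.115) were the lowest. Replication factors (31 genes, median -0.00702) were split as well: Cdt1, which licenses origins, was at -0.221 and Pole, the leading-strand polymerase, at -0.218, whereas Mcm3, a subunit of the helicase, was at 0.265 and Pold1, the lagging-strand polymerase, at 0.234. Pluripotency genes (0.000436), trophectoderm genes (0.0115) and maternally expressed imprinted genes (-0.0162) lay near 0, and primitive endoderm genes (0.0819) above it at 4 hours.

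Hox genes had the highest median of the families (0.151, 39 genes in 13 bins), with 10 genes called earlier and none later, all 10 in 1 cluster. Over all genes, 4.71% were called earlier and 1.65% later. The Hoxb cluster on chromosome 11 had median shares of 0.408 in control and 0.769 in DRB cells, a relative difference of 0.279 and values of 0.203 to 0.532 by hour. Hoxa on chromosome 6 was at 0.151 and below 0 at 38 h (-0.160), and Hoxd on chromosome 2 at 0.0872 and below 0 at 39 h (-0.304). Hoxc on chromosome 15 was at -0.105, with hours on both sides of 0 (-0.410 to 0.168). The 4 clusters thus ranged from ahead to slightly behind the genome, and Hoxb alone was above 0 at all 5 hours.

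**Figure D5:**
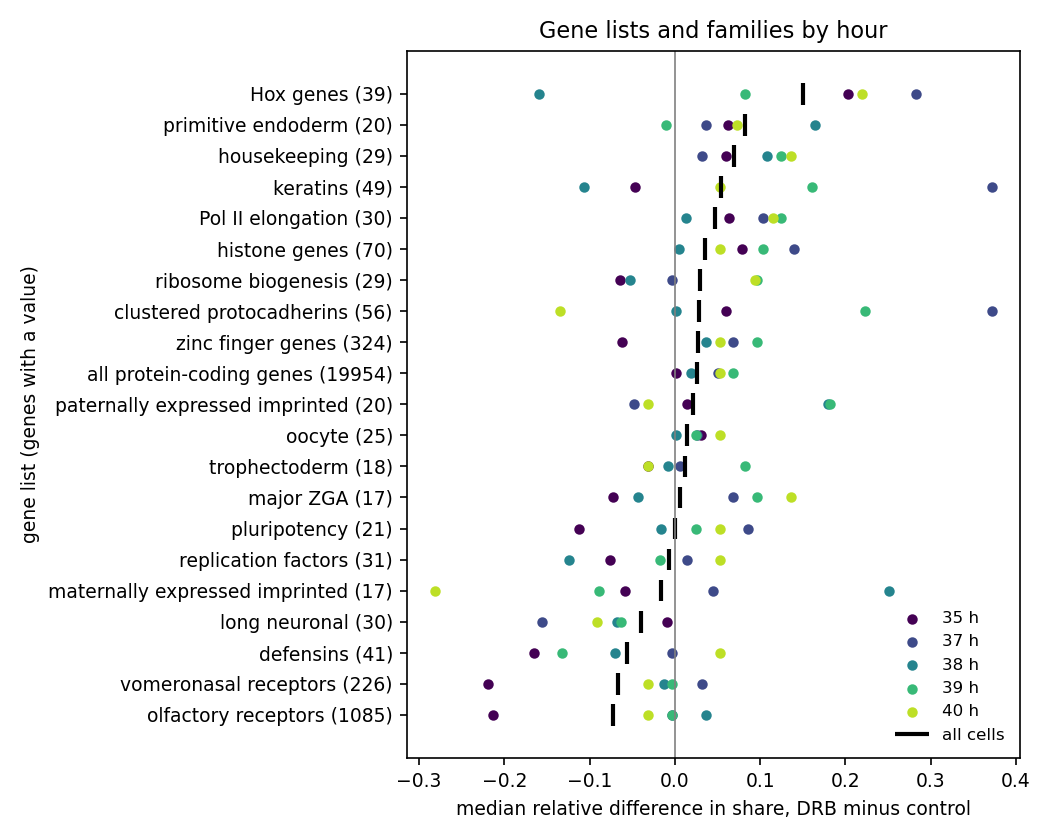
Median relative difference in share, DRB minus control (x axis), for each gene list and family with its number of genes, with a dot for each hour and a black bar for all cells. The bars run from -0.0722 (olfactory receptors) to 0.151 (Hox genes), and the dots of most lists lie on both sides of 0.

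In cells outside the matched hours some of these differences recurred and others were turned. DRB cells of 34 and 36 h (15 cells) were set beside control cells of 32 and 33 h (14 cells), so that hour and treatment cannot be told apart here. Of the 6 windows behind, 3 were below 0 in these cells, and of the 6 ahead 3 were above 0. Of the 64 windows below 0 at all 5 matched hours, 36 (56.3%) were below 0, where 47.8% of all windows were, and of the 80 above 0, 38 (47.5%) were above, where 52.2% of all windows were. The Adgrl3 window was at 0.273, the window of Nsd1 at -0.198 and the window with the Hoxb cluster at -0.0819, each on the opposite side. The named chromosomes were turned as well, with chromosome 1 at 0.0412, 8 at 0.00348, 11 at -0.0129 and 17 at -0.0130. The gap between windows early and late in morula cells was 0.196 in control and 0.222 in DRB cells. The gap by GC content was narrower in DRB (0.117) than in control cells (0.158), and so was the gap by gene density (0.0328 against 0.104). The list medians changed side from the matched hours for housekeeping (-0.0369), Pol II elongation (-0.0321), oocyte (-0.0417) and long neuronal genes (0.0734). So did that of all protein-coding genes (-0.0464), while Hox (0.0917) and histone genes (0.0393) kept theirs. Of the list genes given above with intervals, Eif1ad (-0.323), Hspa8 (-0.189) and Cntn6 (0.00542) were turned and Ccnt1 (0.235) was not.

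α-Amanitin, at 0.1 mg per mL from 17 h, shared the hours 35, 37, 38 and 39 h with both groups. At these hours 26 α-amanitin, 40 DRB and 43 control cells were used, and both inhibitors were read against the same control cells. The gap between windows early and late in morula cells was 0.179 in control, 0.279 in DRB and 0.0645 in α-amanitin cells. By GC content the gaps were 0.0815, 0.2003 and -0.0455, and by gene density 0.0343, 0.121 and -0.0714. The groups differed in their mix of hours, with 21 of 43 control cells at 35 h and 11 of 26 α-amanitin cells at 38 h. With equal weight for each hour, chosen after seeing the data, the gaps in control, DRB and α-amanitin cells were 0.168, 0.269 and 0.107 by morula RT, 0.0540, 0.185 and 0.00557 by GC content, and 0.00545, 0.108 and -0.0348 by gene density. The DRB gap was above the control gap at all 4 hours in each order. The α-amanitin gap was below it at 3 of 4 hours by morula RT, 2 by GC content and 3 by gene density, and lay furthest below at 38 h (-0.0744 against 0.115 by morula RT). Over the pooled hours, the shares in the Ror2 window were 0.507 in control, 0.841 in DRB and 0.678 in α-amanitin cells, and in the Cdh7 window 0.465, 0.294 and 0.468. Across the 12 named windows, α-amanitin was below 0 in 3 of the 6 behind under DRB and above 0 in 4 of the 6 ahead. The median relative difference of Pol II elongation genes was 0.0646 under DRB and -0.0812 under α-amanitin, that of housekeeping genes 0.0681 and -0.0353, that of long neuronal genes -0.0519 and 0.0168, and that of all protein-coding genes 0.0286 and -0.0469.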

How the data were processed

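The deposited values are of another kind than counts or ratios: a binary replication state per cell and bin of 50 kb (1 replicated, 0 not replicated, or missing) on GRCm38 (mm10). Per the labels, the authors used Bowtie2 2.3.5, SAMtools 1.9 and bedtools 2.29.0, and by their methods read numbers in bins were scaled first within the cell and then to that bin's group mean, before segmentation into 2 states. Control and DRB states came in separate tables, so table and treatment cannot be told apart. Of 56 labelled cells per group at the matched hours, 51 control and 54 DRB cells had states, and 2 of each lay outside scores of 10 to 90%. The authors' quality table, not used here for DRB cells, passed 40 of the 49 control cells. All 49 entered the main comparison.

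A bin needed 10 called cells per group and a window 20 bins. Genes were the protein-coding genes of GENCODE vM21, valued as the mean of the bins they overlap, and 287 of 310 listed genes had a value. Named windows are the 6 lowest and 6 highest of one sign at all 5 hours, named genes the up to 3 with the longest overlap, the 2 lowest and 2 highest of each list, Cdk9, Polr2a and Zscan4c to Zscan4f, and named chromosomes the 2 lowest and 2 highest. Some of these genes are not reported here. Hox clusters were added after their values were seen. Members and lists were chosen with earlier results of these data known. Classes of 20% of windows by control cells of 32 and 33 h and by morula cells used cells outside the comparison. Alternatives were equal weight per hour, 16 intervals and 4 strata of score, scores of 20 to 80%, passed control cells, no centring, a threshold of 0.3, windows of 1 Mb and leaving out hours or cells. Python 3.11.15, NumPy 2.4.6, pandas 2.3.3, SciPy 1.17.1 and Matplotlib 3.10.9 were used, and the steps were tested on simulated data.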

Additional observations from a re-analysis of the deposited data

Results flagged for a closer look

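Within groups of 4 to 10 cells of an hour, a gap test on the lowest and highest cell was applied 21 times, over replication score, correlation with the group and changes of state. Chance alone would single out about 5% of such groups. At 39 h, the DRB cell with the lowest score (34.1%, next 55.02%) lay far from the other 9 of 10 cells. Another DRB cell of 39 h had the lowest correlation with its group (0.139, next 0.297) and the fewest changes of state (47, next 869). At 37 h, 1 control cell had 0 changes of state, with 1163 in the next of the 8 cells.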

How the results depend on the processing

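No paired analysis was possible because the labels number cells within a group and no number joins a DRB cell to a control cell. Main counts were 8 windows called later, 4 earlier, 1631 bins later and 1469 earlier. Windows called later numbered 41 at 1 Mb, 21 with equal weight per hour, 13 with passed control cells, 0 uncentred and 0 at a threshold of 0.3. Windows called earlier numbered 30 at 1 Mb, 10 over 16 intervals, 23 over 4 strata, 12 with equal weight per hour, 2 at scores of 20 to 80%, 101 uncentred and 0 at 0.3. Bins called later numbered 241 uncentred and 151 at 0.3, and bins called earlier 2833 over 4 strata, 2379 with equal weight per hour, 6841 uncentred and 83 at 0.3. Leaving out an hour gave 8 to 34 windows later, 4 to 31 earlier, 1634 to 3336 bins later and 1670 to 3464 earlier, with the highest count of each without 35 h. The cause was not tested, though fewer cells enter each such value. Without cells of few changes of state, chosen after seeing the data, 7 windows were called earlier, and without these and the 5 control cells numbered 73 and above the gap by morula RT widened by 0.0558. List medians turned more often: of 25, 18 kept their sign over 4 strata, 18 uncentred and 19 without 37 h, and that of oocyte genes reached -0.00548, of major ZGA genes -0.0465 to 0.0888, of keratins -0.0546 to 0.147 and of clustered protocadherins -0.0898 to 0.140. Named windows and genes were chosen at the extremes, so their kept signs show nothing. With any hour left out, the difference in score was 3.82 to 11.3 points, in SD 0.00656 to 0.0388, in variability score -0.111 to -0.0250 and in the gap by morula RT 0.0623 to 0.108. With about 50 cells a group, and 6 to 21 an hour, counting error limits every share.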
